A study of Mus musculus with 21 samples.

Results

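The Id proteins Id1, Id2, Id3 and Id4 and the E proteins Tcf3 (E2A), Tcf4 (E2-2) and Tcf12 (HEB) were followed across 21 Affymetrix mouse genome arrays of sorted cells from mouse medulloblastoma, a tumour of the cerebellum. The members were these 7 of the 18194 genes that the array's annotation names, read by every probe set (a group of short oligonucleotides that reads 1 transcript region) that carries 1 of their symbols alone. These were 22 of the 45101 probe sets on the array: 1 for Id1, 3 for Id2, 1 for Id3, 3 for Id4, 3 for Tcf3, 6 for Tcf4 and 5 for Tcf12. The gene IDs of all 22 matched the named genes, so that Tcf3 and Tcf4 here are not Tcf7l1 and Tcf7l2, which older literature gave the same names.

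The titles give 4 groups. Math1-GFP CD15 positive cells had 4 arrays (numbered 1, 5, 7 and 9), Math1-GFP CD15 negative cells had 5 (2, 4, 6, 8 and 10), conventional CD15 positive cells had 6 and conventional CD15 negative cells had 6. In each conventional group 1 array carries no number and is called array 1 here, and the others are numbered 2 to 6 in both groups. All samples are labelled as total RNA of primary tumour cells from the cerebellum of mice with Patched medulloblastoma, a model in which loss of Patched, the receptor that restrains Sonic hedgehog signalling, gives rise to the tumours. CD15 is a carbohydrate on the cell surface by which the cells had been sorted. Math1, also called Atoh1, is made in the precursors of granule neurons, and a Math1-GFP reporter marks cells in which its regulatory sequence is active. The labels give no strain, age, sex or full genotype, and do not say how many animals were used or whether any were pooled. They describe the Math1-GFP samples, too, as coming from conventional tumours, and the titles were followed here. The Math1-GFP and conventional titles also end in different suffixes, whose meaning is not stated, so that the model and whatever the suffix marks cannot be told apart.

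E proteins are basic helix-loop-helix (bHLH) transcription factors that are made in most tissues. They pair with each other or with tissue-restricted bHLH proteins such as Atoh1 and Neurod1, and the pairs bind the E box, CANNTG, in the regulatory sequence of genes of differentiation. Id proteins have the helix-loop-helix but lack the basic region that contacts DNA. An Id protein bound to an E protein therefore keeps it off the E box. Id genes are known as early targets of bone morphogenetic protein (BMP) signalling, and in the developing cerebellum bHLH proteins guide the step from dividing precursor to granule neuron.

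The 250 bases before the start of 3 Id genes and of Tcf3 are shown because the E box is the sequence through which the whole family acts. They are RefSeq sequences on build GRCm38.p6, written 5′ to 3′ on the strand of the gene, with each CANNTG match in capitals. The windows lie at chr12:25096093-25096342 (minus strand) for Id2, chr4:136143572-136143821 (plus strand) for Id3, chr13:48260866-48261115 (plus strand) for Id4 and chr10:80433636-80433885 (minus strand) for Tcf3.
Id2: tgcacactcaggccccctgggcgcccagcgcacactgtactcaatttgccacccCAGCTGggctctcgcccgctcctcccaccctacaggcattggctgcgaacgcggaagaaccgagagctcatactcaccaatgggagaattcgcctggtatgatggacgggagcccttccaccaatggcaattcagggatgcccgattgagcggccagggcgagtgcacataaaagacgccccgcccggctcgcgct
Id3: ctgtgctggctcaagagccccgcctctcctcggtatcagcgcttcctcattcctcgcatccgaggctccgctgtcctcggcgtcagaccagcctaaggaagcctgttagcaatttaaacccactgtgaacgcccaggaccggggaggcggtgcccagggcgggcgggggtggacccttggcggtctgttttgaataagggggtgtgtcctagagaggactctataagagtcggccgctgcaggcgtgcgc
Id4: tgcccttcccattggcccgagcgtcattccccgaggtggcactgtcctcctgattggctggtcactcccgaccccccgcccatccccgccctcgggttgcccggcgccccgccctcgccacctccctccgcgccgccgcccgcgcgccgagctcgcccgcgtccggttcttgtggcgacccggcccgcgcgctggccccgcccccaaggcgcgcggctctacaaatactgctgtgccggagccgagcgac
Tcf3: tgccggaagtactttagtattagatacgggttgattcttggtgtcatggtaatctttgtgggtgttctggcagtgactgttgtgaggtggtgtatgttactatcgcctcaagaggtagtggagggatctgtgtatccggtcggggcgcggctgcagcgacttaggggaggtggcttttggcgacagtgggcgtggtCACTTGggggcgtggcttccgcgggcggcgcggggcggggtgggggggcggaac

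The Id2 window held 1 CANNTG, the palindrome CAGCTG, from 196 to 191 bases before the start, and the Tcf3 window held 1, CACTTG, from 54 to 49 bases before it. The Id3 and Id4 windows held none. Tcf12 has several windows, which are not shown. Of these, a window held CAGCTG from 240 to 235 bases before the start, another held CAAGTG from 149 to 144 bases, and a further one held no CANNTG. Over all 32851 such windows of the table, 66.2% held at least 1 CANNTG, which reads the same on both strands. The GC-rich hexamer GGCGCC, part of a known BMP-responsive element of the Id1 promoter, occurred once in the Id2 window (231 to 226 bases before the start) and once in the Id4 window (148 to 143 bases), against 9.59% of all windows. The letters CCAAT occurred on either strand 3 times for Id2 and 2 times for Id4, with 33.8% of all windows holding them. TATAA occurred once, in the Id3 window, from 29 to 25 bases before the start (22.8% of all windows). The windows of Id2, Id3 and Id4 had a GC content of 62.8%, 62.8% and 75.6%. These matches describe the letters only.

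The deposited signal of each array had the same trimmed mean, 150.0 with 2% of probe sets left out at each end, and array medians lay between 22.1 and 32.7. Correlations between arrays lay between 0.857 and 0.981, and no arrays were identical. Of all probe sets, 23211 had 1 gene symbol and passed a filter on low signal (a mean above the 40th percentile, a signal of about 15.5), and all 22 members were among them. Groups were compared with limma on log2(signal + 32), with Benjamini-Hochberg adjustment over the 23211 probe sets and a threshold of 0.05, and fold changes are on that scale, which understates the change of dim probe sets. Every adjusted p below is from limma. The same-numbered conventional arrays varied together, so values from a fit with the title number as a block are given where they change a call. That fit left out the unnumbered conventional arrays and kept the Math1-GFP arrays unpaired. Its residual spread is pooled over the conventional pairs and the Math1-GFP arrays. A blocked SE of an average over the models therefore does not measure the spread between Math1-GFP samples alone. Granule-lineage markers were measured for 7 of 7 genes, with 0 of them called between CD15 fractions. Markers of mitosis were higher in conventional CD15 positive cells for 8 of 9 measured genes, and markers of neurons were lower for 8 of 11. Over all tested probe sets 2.07% were higher and 3.84% lower. Of the markers of other cell types, 11 of 12 for microglia and macrophages, 10 of 11 for astrocytes, 8 of 8 for mural cells and fibroblasts, 6 of 10 for endothelium, 5 of 8 for the oligodendrocyte lineage and 4 of 8 for neutrophils passed the filter.

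Counted over the members, 1 of 22 probe sets was called between conventional CD15 fractions, lower, where 5.91% of all tested probe sets were called. With the block it was 2 of 22, against 7.39%. In Math1-GFP cells 0 of 22 were called and 0% of all probe sets, although 7.84% of all had an unadjusted p under 0.05 (limma); the block gave 0 of 22, against 0.728%. The average over the models called 1 of 22, against 7.52%, and with the block 3 of 22, against 10.8%. The members' share of calls was near or below the background in each of these counts. The difference between the models in the CD15 difference was called for 0 of 22 members. It ran from -0.23 to 0.40, with adjusted p of 1 throughout, and 0% of all probe sets passed it (2.15% had an unadjusted p under 0.05).

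Id1 was higher in CD15 positive than in CD15 negative cells in every numbered pair of conventional arrays, and passed the test only with the title number as a block. In Math1-GFP CD15 positive cells its signals were 926, 734, 933 and 1005 on arrays 1, 5, 7 and 9, against 524, 576, 537, 451 and 790 on the 5 Math1-GFP CD15 negative arrays. Conventional CD15 positive arrays lay between 135 and 922, with a median of 366, against 93.8 to 676, with a median of 201, in conventional CD15 negative cells. The Math1-GFP fractions overlapped only in that the highest CD15 negative array, number 10, exceeded the lowest CD15 positive array, number 5. The conventional fractions overlapped over most of their range.

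Set side by side by title number, the conventional Id1 signals were 258 in CD15 positive and 171 in CD15 negative cells for number 2, and 135 and 93.8 for number 3. They were 473 and 230 for number 4, 186 and 130 for number 5, and 922 and 676 for number 6. The CD15 positive array was the higher in each of the 5 numbered pairs, by 0.41 to 0.95 on the log2 scale, and in the unnumbered arrays it was 551 against 409. Arrays with a low Id1 signal in one fraction thus had a low signal in the other, and the spread between tumours was larger than the difference within them. Over all tested probe sets, 11.3% were higher in all 5 numbered pairs.

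Without the block the conventional Id1 difference was 0.52 ± 0.39 (SE, log2), with an adjusted p of 0.50, and with the title number as a block it was 0.55 ± 0.14, with an adjusted p of 0.027. Leaving out the 2 arrays of each number in turn moved the blocked adjusted p between 0.045 and 0.13, past the threshold only without number 6. In Math1-GFP cells the difference was 0.63 ± 0.45 with an adjusted p of 0.80. Averaged over both models, Id1 differed by 0.58 ± 0.30 without the block (adjusted p 0.27) and by 0.59 ± 0.10 with it (adjusted p 0.0017), and the blocked value stayed past the threshold without each of the 5 numbers, at adjusted p between 0.0033 and 0.0062. Taken by consecutive title numbers (1 with 2, 5 with 6, 7 with 8, 9 with 10), a pairing not given by the labels and tried after seeing the data, Id1 was higher in Math1-GFP CD15 positive cells in 4 of 4 pairs, by 0.34 to 1.00. With these pairs as blocks 2 of 22 members were called in Math1-GFP cells, against 5% of all probe sets, Id1 at an adjusted p of 0.0097 and Id3 at 0.030. The markers of mitosis named above were higher in the same comparison, and their part in the result was not tested.

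**Figure D1:**
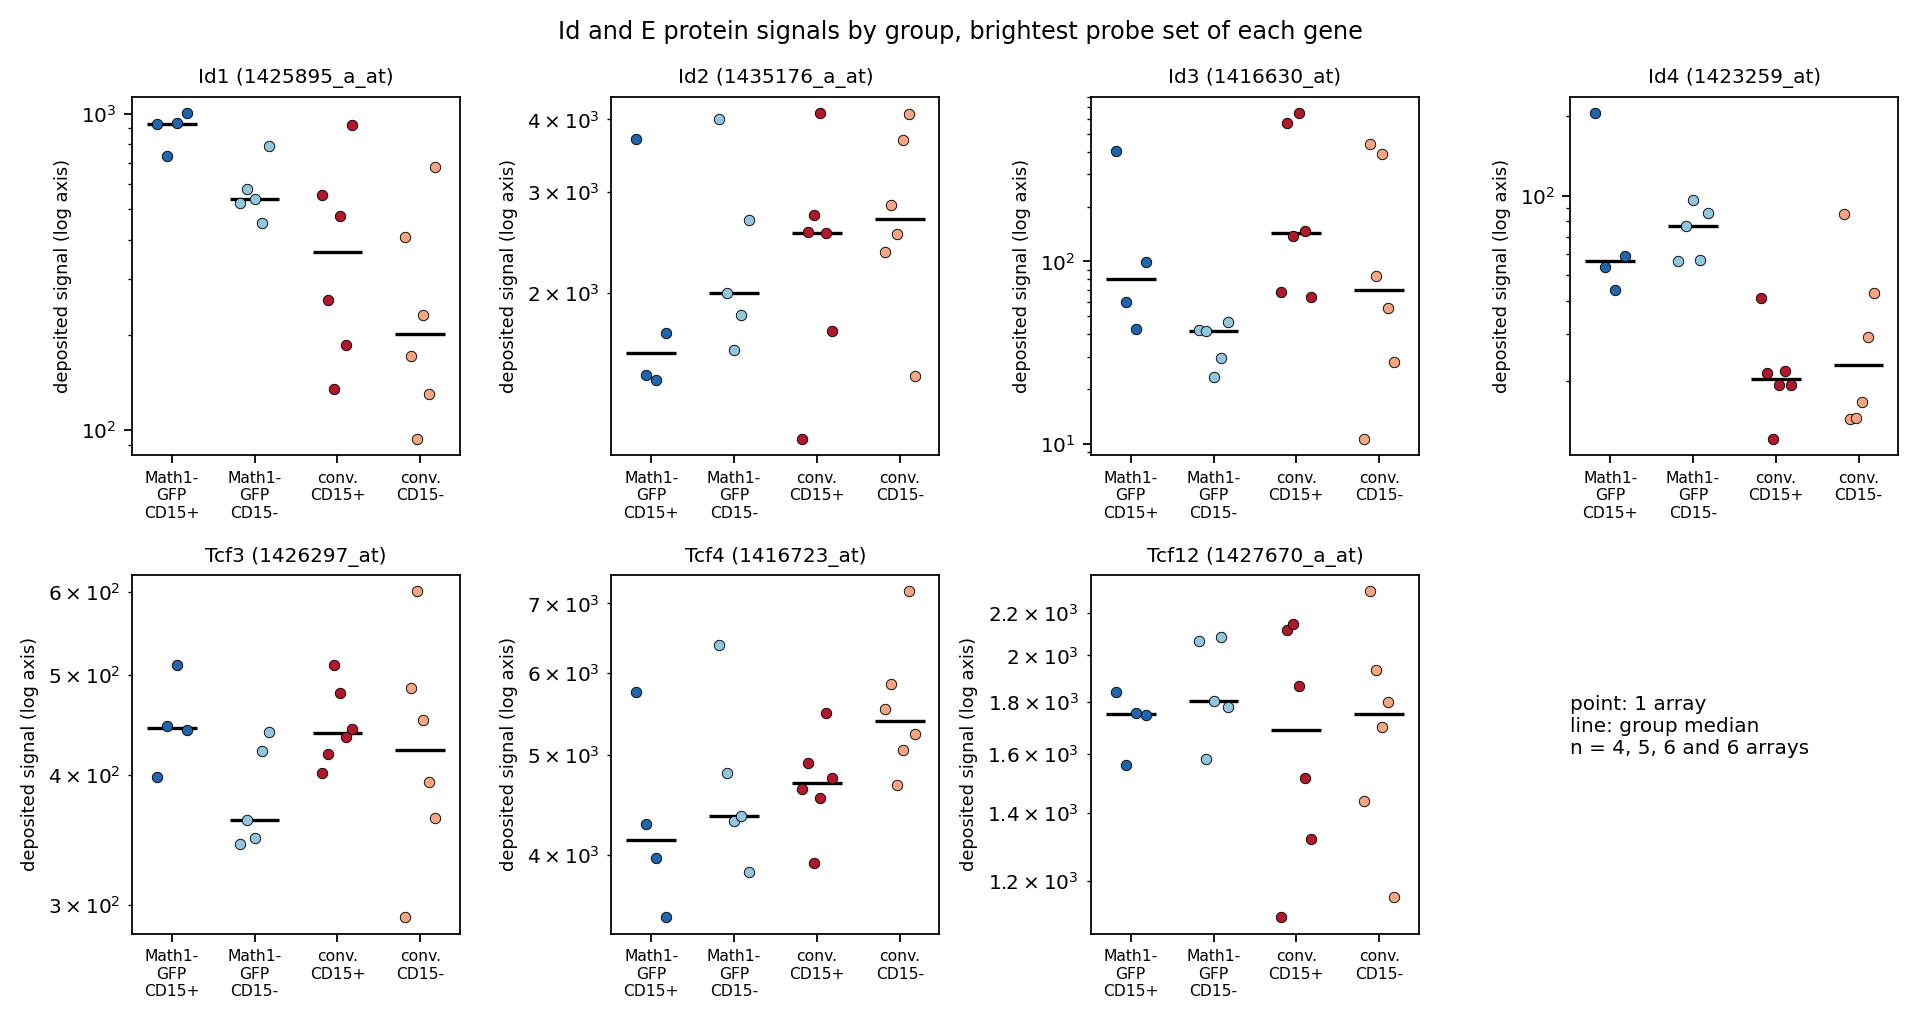
Signal of the brightest probe set of each member gene on every array, on a log axis, with Math1-GFP CD15 positive (n = 4), Math1-GFP CD15 negative (n = 5), conventional CD15 positive (n = 6) and conventional CD15 negative (n = 6) arrays from left to right. Points are arrays and lines are group medians; Id1 had its highest median, 929, in Math1-GFP CD15 positive cells and its lowest, 201, in conventional CD15 negative cells, and Id3 and Id4 spread widely within groups.

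Id3, an Id gene of precursors and glia in the developing nervous system, went the same way in every numbered pair but varied more between arrays. Its 1 probe set read 401, 60.2, 42.6 and 99.2 on Math1-GFP CD15 positive arrays 1, 5, 7 and 9, against 41.9, 41.5, 23.3, 29.5 and 46.6 on the Math1-GFP CD15 negative arrays. Conventional CD15 positive arrays read 63.6 to 652 (median 143), against 10.6 to 439 (median 69.5) in conventional CD15 negative cells. Array 1 stood above all other Math1-GFP arrays, and the fractions overlapped in both models.

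Within the numbered conventional pairs, Id3 read 573 in CD15 positive and 439 in CD15 negative cells for number 2, 138 and 83.1 for number 3, and 652 and 390 for number 4. For numbers 5 and 6 the values were 148 and 55.9, and 63.6 and 28.2. The CD15 positive array was higher in all 5 by 0.36 to 1.03 on the log2 scale, and in the unnumbered arrays by 1.23 (67.8 and 10.6). The pairs of numbers 2 and 4 were the highest in both fractions.

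The conventional Id3 difference was 0.76 ± 0.59 (adjusted p 0.53) and did not pass with the block either (0.66 ± 0.33, adjusted p 0.25). Averaged over the models it was 0.90 ± 0.46 (adjusted p 0.26), and with the block 0.86 ± 0.24 with an adjusted p of 0.033. That blocked call was lost without each of the 5 numbers in turn, at adjusted p between 0.052 and 0.080. The Math1-GFP value of 1.05 ± 0.69 (adjusted p 0.78) was 0.51 without Math1-GFP CD15 positive array 1.

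Summed markers of other cell types were set beside Id3. For 10 of 11 astrocyte markers that were measured, the summed signal was 4100 to 10479 in Math1-GFP CD15 positive and 2516 to 4257 in Math1-GFP CD15 negative cells, with array 1 at the top. It was 3397 to 7621 in conventional CD15 positive and 3070 to 6259 in conventional CD15 negative cells. For 11 of 12 microglia and macrophage markers it was 495 to 2378 in Math1-GFP CD15 positive and 309 to 775 in Math1-GFP CD15 negative cells. It was 953 to 14234 in conventional CD15 positive and 400 to 4849 in conventional CD15 negative cells, and conventional CD15 positive arrays 2 and 4, the highest for Id3, had the highest sums, 9463 and 14234. The astrocyte sum was higher in CD15 positive cells in all 5 numbered pairs. The microglia and macrophage sum was higher in 4 of 5, with 4561 in CD15 positive and 4849 in CD15 negative cells for number 5. Other lists went the other way, higher in 1 of 5 pairs for mural cells and fibroblasts, endothelium and the oligodendrocyte lineage, and 0 of 5 for neutrophils. The mural and fibroblast sum was nevertheless also highest for numbers 2 (1717 and 3124) and 4 (1061 and 4647). Math1-GFP CD15 positive array 1 was highest of its group for mural (966), neutrophil (410) and endothelial (342) sums too. With the block, 5 of 11 microglia and macrophage markers were called higher in conventional CD15 positive cells and 0 lower, against 7.39% of all probe sets. For astrocytes 0 of 10 were higher and 1 lower, and for mural cells and fibroblasts 0 of 8 were higher and 3 lower. In the blocked average, 4 of 11 microglia and macrophage markers were higher and 0 lower, against 10.8%, and 1 of 10 astrocyte markers was higher and 0 lower. The part of these cells in the result was not tested. In sorted bulk RNA, fewer cells of a type and less RNA per cell cannot be told apart.

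Id2, an Id gene of many differentiating neurons, had 3 probe sets and no call between CD15 fractions. Its brightest read 3705, 1444, 1415 and 1704 on Math1-GFP CD15 positive arrays, against 4000, 2002, 1596, 1838 and 2681 on Math1-GFP CD15 negative arrays. Conventional CD15 positive arrays read 1119 to 4106 (median 2546), against 1440 to 4088 (median 2689) in conventional CD15 negative cells. The second probe set, 1422537_a_at, spanned 519 to 1856 in Math1-GFP CD15 positive and 520 to 1771 in Math1-GFP CD15 negative cells, and 649 to 1672 in conventional CD15 positive and 798 to 1408 in conventional CD15 negative cells. The groups overlapped in both models for both probe sets. The conventional differences of the 3 probe sets were -0.23, -0.28 and 0.10, with CD15 positive higher in 3, 2 and 3 of the 5 numbered pairs. Averaged over the models they were -0.25, -0.21 and 0.10, with adjusted p between 0.60 and 0.78.

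Id4, an Id gene of neural precursors and astrocytes, was among the dimmer members. Its 3 probe sets varied together over the arrays, with r of 0.77 to 0.81 between their deviations from the group means. In conventional cells they differed between CD15 fractions by -0.20, -0.24 and -0.37 (adjusted p 0.44 to 0.73), and in Math1-GFP cells by 0.05, 0.16 and 0.02. No call was made in either model.

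Tcf4 gave the only member call between CD15 fractions without a block. Its probe set 1434149_at read 1942, 1559, 1527 and 1460 in Math1-GFP CD15 positive cells, against 2484, 1781, 1877, 1830 and 2073 in Math1-GFP CD15 negative cells. Conventional CD15 positive arrays read 990 to 1494 (median 1105), against 1509 to 2074 (median 1651) in conventional CD15 negative cells. The conventional fractions did not overlap, and the Math1-GFP fractions overlapped only through CD15 positive array 1. The share of all probe sets that separate as fully is not given here.

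By number, the conventional pairs of this probe set were 990 in CD15 positive and 1687 in CD15 negative cells (2), 1043 and 1509 (3), 1159 and 1615 (4), 1494 and 2074 (5) and 1354 and 1555 (6). The CD15 positive array was lower in all 5, by 0.20 to 0.75 on the log2 scale, and 14.9% of all tested probe sets were lower in all 5. The conventional difference was -0.51 ± 0.12, a 0.70-fold level, with an adjusted p of 0.013. Averaged over the models it fell by 0.41 ± 0.09 with an adjusted p of 0.0081, and in Math1-GFP cells the difference was -0.30 ± 0.14 with an adjusted p of 0.62. Leaving out any 1 array kept the conventional call, at adjusted p between 0.0065 and 0.041, but on the numbered arrays alone without the block the difference was -0.48 with an adjusted p of 0.0503. With the block the conventional adjusted p was 0.024, and it moved between 0.022 and 0.10 as each number was left out, past the threshold in 1 of 5.

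The other 5 Tcf4 probe sets were not called. The brightest, 1416723_at, read 5743, 4283, 3975 and 3478 in Math1-GFP CD15 positive cells, against 6379, 4798, 4308, 4357 and 3845 in Math1-GFP CD15 negative cells. It read 3924 to 5482 (median 4690) in conventional CD15 positive cells, against 4666 to 7193 (median 5384) in conventional CD15 negative cells. These ranges overlapped, and the conventional difference was -0.24 with an adjusted p of 0.36. Probe sets 1434148_at, 1416724_x_at and 1424089_a_at had conventional differences of -0.24, -0.36 and -0.31, each with an adjusted p of 0.26, and the dim 1416725_at had 0.03. The 4 uncalled bright probe sets were lower in CD15 positive cells in 4 or 5 of the 5 numbered pairs. Deviations of the 5 bright probe sets correlated with r of 0.56 to 0.92, and those of 1416725_at with the others by -0.20 to 0.09. Neuron markers were lower in CD15 positive cells in the same comparison (8 of 11 called in conventional cells, with a median log2 change of -1.11), and their part in the Tcf4 result was not tested.

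**Figure D2:**
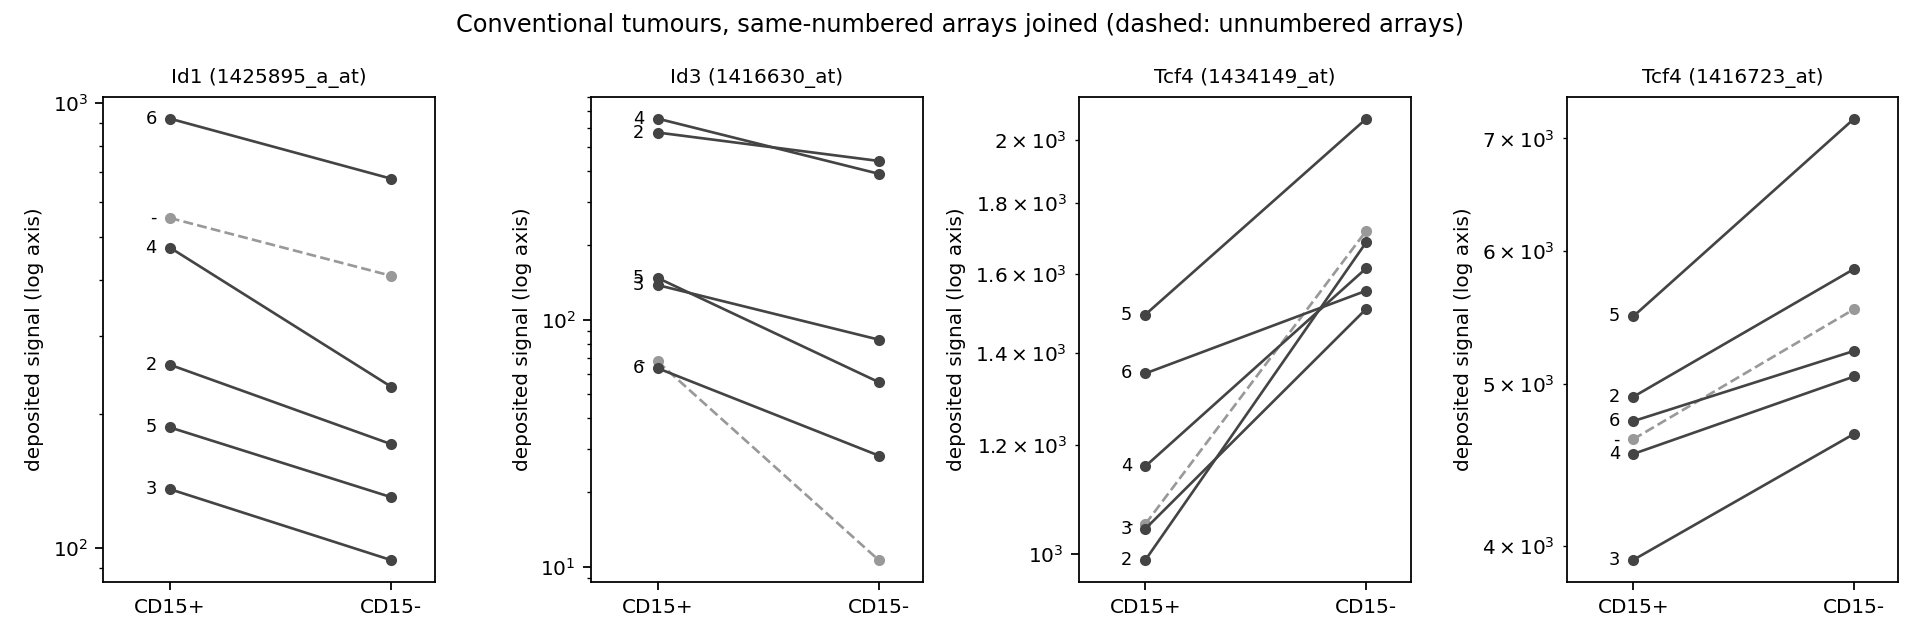
Signal of Id1, Id3 and Tcf4 probe sets 1434149_at and 1416723_at in conventional CD15 positive cells (left of each panel) and CD15 negative cells (right), with lines joining arrays of the same title number and a dashed line joining the unnumbered arrays. Id1 and Id3 run down from CD15 positive to CD15 negative in all 5 numbered pairs, and Tcf4 1434149_at runs up in all 5.

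Tcf3 and Tcf12 had no CD15 call. The brightest Tcf3 probe set read 399, 447, 511 and 442 in Math1-GFP CD15 positive cells, against 343, 362, 348, 422 and 440 in Math1-GFP CD15 negative cells. It read 402 to 510 (median 439) in conventional CD15 positive cells, against 292 to 601 (median 423) in conventional CD15 negative cells. Its range over all arrays was narrow, and the 3 Tcf3 probe sets differed between conventional fractions by 0.08, 0.24 and 0.22 with adjusted p between 0.40 and 0.80. The brightest Tcf12 probe set, 1427670_a_at, lay at 1562 to 1843 in Math1-GFP CD15 positive cells, against 1583 to 2085 in Math1-GFP CD15 negative cells. It lay at 1106 to 2148 in conventional CD15 positive cells, against 1157 to 2313 in conventional CD15 negative cells. All 5 Tcf12 probe sets had adjusted p between 0.42 and 0.99 in the conventional comparison.

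**Figure D3:**
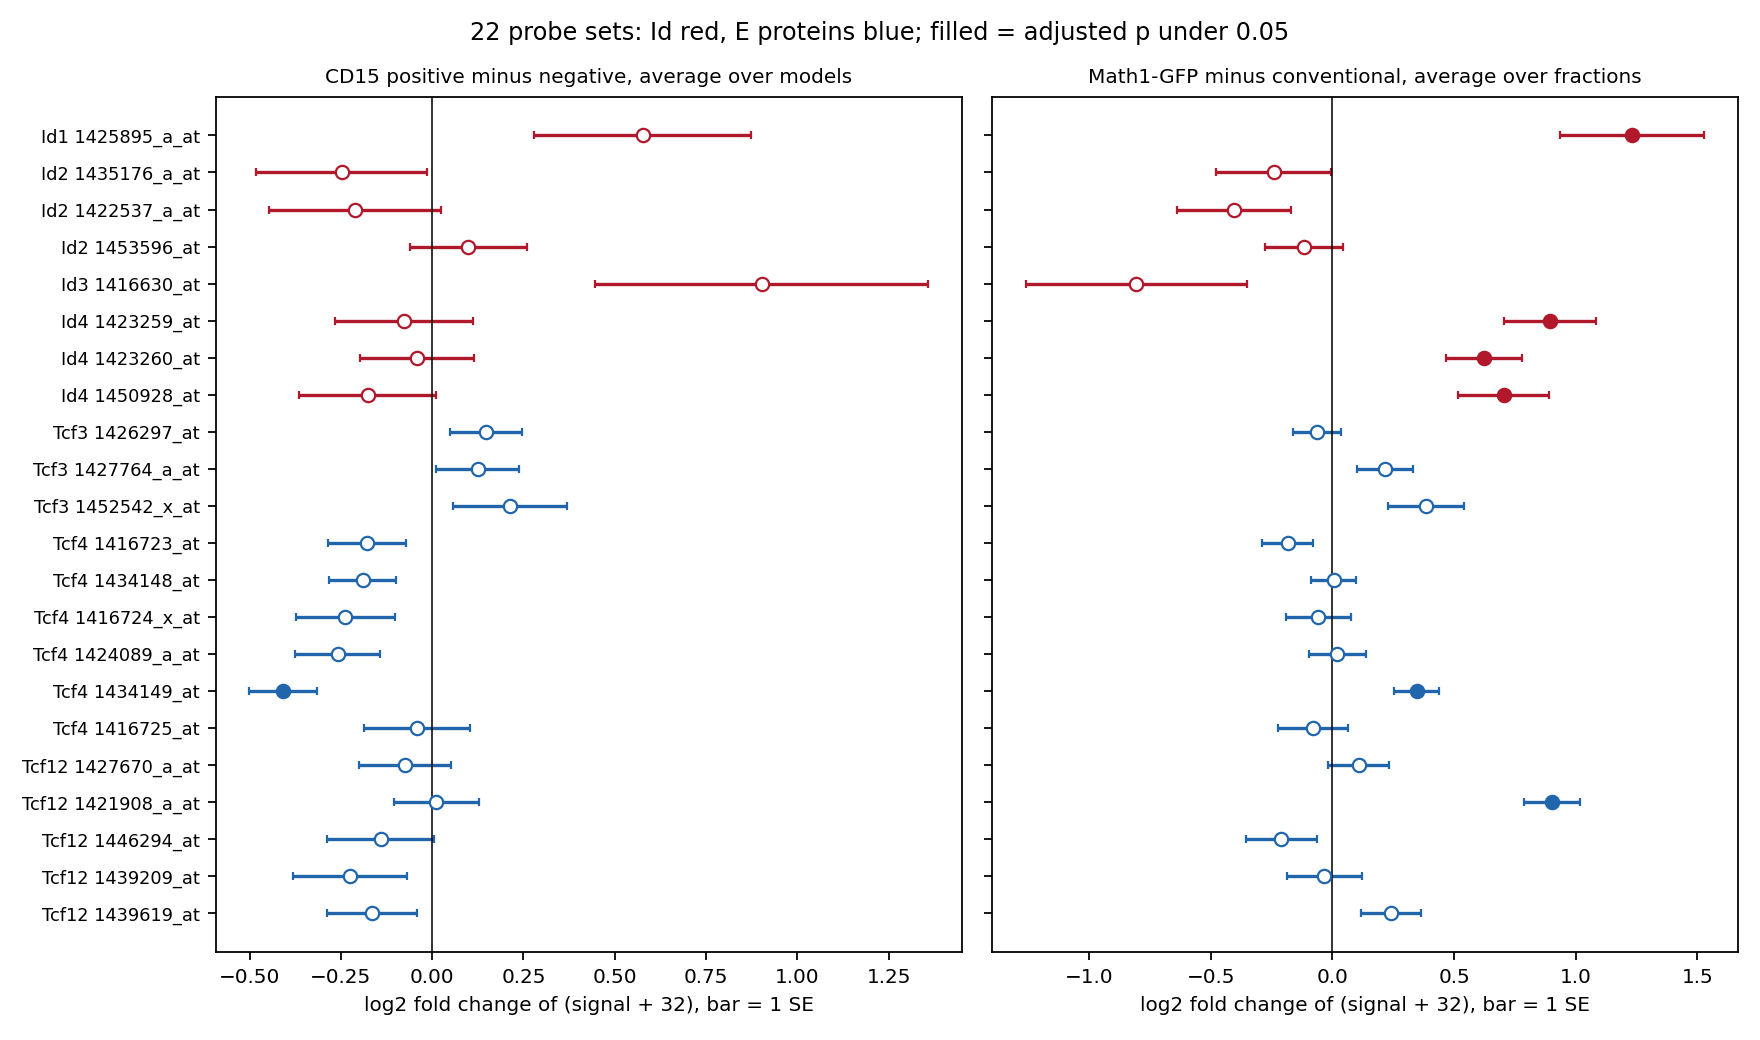
Log2 differences with 1 SE for the 22 member probe sets, CD15 positive minus CD15 negative averaged over the models on the left and Math1-GFP minus conventional averaged over CD15 fractions on the right, with Id genes in red, E proteins in blue and filled points for an adjusted p under 0.05. Only Tcf4 1434149_at is filled on the left, at -0.41, and 6 probe sets are filled on the right, from 0.35 to 1.23.

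In the fit without a block, more probe sets were called between models than between CD15 fractions. These counts are not on an equal footing, since that fit does not use the pairs in which the fractions can be compared. Averaged over CD15 fractions, 6 of 22 member probe sets were called, all higher in Math1-GFP than in conventional cells, where 42.6% of all tested probe sets were called (26.8% higher and 15.8% lower). The member share lay below that background. Here and in every model difference below that is averaged over fractions, arrays that may share a tumour count as separate samples. Same-numbered conventional arrays and consecutive Math1-GFP numbers varied together, so the SE and adjusted p of such a difference are likely too small. Between models, 21.5% of all probe sets were called in CD15 positive arrays alone and 22.1% in CD15 negative arrays alone, in fits with fewer arrays. Model and title suffix cannot be told apart in any of these values, and the median over all probe sets shifted by 0.08.

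Id1 was 1.23 ± 0.30 higher on the log2 scale in Math1-GFP than in conventional cells, 2.35-fold, with an adjusted p of 0.0022. In CD15 positive arrays alone the difference was 1.29 ± 0.41 (adjusted p 0.042) and in CD15 negative arrays alone 1.18 ± 0.37 (adjusted p 0.035). On the log2(signal + 32) scale, Id1 averaged 9.85 ± 0.19 (SD, n = 4) in Math1-GFP CD15 positive and 9.22 ± 0.28 (n = 5) in Math1-GFP CD15 negative cells. It averaged 8.57 ± 0.95 (n = 6) in conventional CD15 positive and 8.04 ± 0.93 (n = 6) in conventional CD15 negative cells. In this order of the 4 groups, each group overlapped the next, the Math1-GFP fractions only through arrays 5 (734) and 10 (790). The spread was wider among conventional tumours, of which number 3 lay lowest. Both arrays of number 6 (922 and 676) lay in the Math1-GFP range of 451 to 1005. So did conventional CD15 positive arrays 1 (551) and 4 (473).

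All 3 Id4 probe sets rose in Math1-GFP over conventional cells. Probe set 1423259_at read 205, 53.8, 44.2 and 59.3 in Math1-GFP CD15 positive and 56.7, 76.9, 96.2, 57.1 and 86.1 in Math1-GFP CD15 negative cells. Conventional CD15 positive arrays read 12.1 to 41.0 (median 20.4), and conventional CD15 negative arrays 14.4 to 85.4 (median 22.9). The CD15 positive arrays of the models did not overlap, and the share of all probe sets for which this holds is not given here. The difference was 0.89 ± 0.19, 1.86-fold, with an adjusted p of 7.3e-04, and 0.71 without Math1-GFP CD15 positive array 1, whose astrocyte marker sum was also the highest. For these dim probe sets the size rests on the added constant, running from 0.41 to 1.58 for 1423259_at over the constants tried. The other Id4 probe sets were as dim. Probe set 1423260_at spanned 45.8 to 96.0 in Math1-GFP CD15 positive and 35.3 to 79.0 in Math1-GFP CD15 negative cells, against 7.30 to 52.3 in conventional CD15 positive and 18.6 to 85.6 in conventional CD15 negative cells. Probe set 1450928_at spanned 29.6 to 114 and 42.2 to 63.5 in Math1-GFP CD15 positive and CD15 negative cells, against 1.27 to 43.9 and 11.8 to 90.3 in conventional CD15 positive and CD15 negative cells. They differed by 0.62 ± 0.16 (adjusted p 0.0030) and 0.70 ± 0.19 (adjusted p 0.0047). In CD15 positive arrays alone all 3 passed, at adjusted p of 0.024, 0.021 and 0.039, where 21.5% of all probe sets were called. In CD15 negative arrays alone 1423259_at passed, at 0.029, where 22.1% of all were called.

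Tcf12 probe set 1421908_a_at had the smallest p of all members. It read 754, 686, 904 and 809 in Math1-GFP CD15 positive and 820, 707, 749, 828 and 748 in Math1-GFP CD15 negative cells, against 310 to 514 (median 403) in conventional CD15 positive and 262 to 543 (median 416) in conventional CD15 negative cells. No Math1-GFP array overlapped a conventional one. How many of all probe sets separate in this way is not given here, and 42.6% of them were called between models. The difference was 0.90 ± 0.12, 1.87-fold, with an adjusted p of 2.9e-06, and it was 0.92 and 0.89 in CD15 positive and CD15 negative arrays alone. The brightest Tcf12 probe set, 1427670_a_at, differed by 0.11 ± 0.13 with an adjusted p of 0.52. The 2 probe sets disagreed on the models although their deviations within groups correlated with r of 0.67. The remaining 3 Tcf12 probe sets differed by -0.21, -0.03 and 0.24 and were not called.

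Tcf4 probe sets also split. Probe set 1434149_at was higher in Math1-GFP cells by 0.35 ± 0.09 (adjusted p 0.0047), by 0.45 in CD15 positive arrays alone (adjusted p 0.048) and by 0.24 in CD15 negative arrays alone (adjusted p 0.19). The other 5 differed by -0.18 to 0.02 and were not called. These values depended on the processing. With quantile normalization 1434148_at was also called, higher by 0.30 (adjusted p 0.013). Over the alternatives 1416723_at ran from -0.31 to 0.17, and it was called lower without Math1-GFP arrays 1 and 2 (adjusted p 0.011). Probe set 1424089_a_at ran from -0.13 to 0.20 and 1416724_x_at from -0.22 to 0.14. Which transcripts of Tcf4 or Tcf12 each probe set reads was not examined here.

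The remaining members were not called between models without a block. Id3 differed by -0.81 ± 0.46 (adjusted p 0.16), and with the title number as a block by -1.08 ± 0.24 (adjusted p 0.0017, where 48.3% of all probe sets were called). That block leaves the spread between tumours out of a comparison between models, and the CD15 positive and CD15 negative arrays alone gave adjusted p of 0.49 and 0.23. The 11 measured microglia and macrophage markers were all lower in Math1-GFP cells, with a median log2 difference of -1.22. Of the 8 mural and fibroblast markers 0 were higher and 3 lower (8 lower with the block), with a median of -0.74. Their summed signal was 280 to 966 in Math1-GFP CD15 positive and 224 to 376 in Math1-GFP CD15 negative cells, against 237 to 1717 in conventional CD15 positive and 277 to 4647 in conventional CD15 negative cells. Of the 7 granule-lineage markers 3 were higher in Math1-GFP cells and 0 lower, against 26.8% and 15.8% of all probe sets. The part of these cells in the values of Id1, Id3, Id4, Tcf4 and Tcf12 between models was not tested. Id2 differed by -0.24, -0.41 and -0.12, and its second probe set, 1422537_a_at, passed without Math1-GFP CD15 positive array 1 (-0.62, adjusted p 0.020). Tcf3 differed by -0.06, 0.22 and 0.39, and the last, the dim 1452542_x_at, lay at the threshold with an adjusted p of 0.052.

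The tissue-restricted bHLH partners of E proteins were measured for 11 of 21 listed genes. In conventional tumours 0 were higher and 3 lower in CD15 positive than in CD15 negative cells, where 2.07% of all probe sets were higher and 3.84% lower. The median of the list was -0.56, against -0.02 over all genes. Nhlh1, a factor of newly formed neurons, fell by 1.52 ± 0.25 (adjusted p 0.0010). Neurod1, a driver of granule neuron differentiation, fell by 1.08 ± 0.26 (adjusted p 0.015), and Nhlh2, a close relative of Nhlh1, fell by 0.97 ± 0.29 (adjusted p 0.047). Averaged over the models, Neurod2, a factor of maturing neurons, also fell, by 0.65 ± 0.17 (adjusted p 0.019). Olig1, a factor of the oligodendrocyte lineage, rose by 1.08 ± 0.28 (adjusted p 0.020), for 1 higher and 4 lower of 11, against 2.6% and 4.92% of all probe sets. Atoh1, the factor of granule neuron precursors, differed by 0.22 with an adjusted p of 0.68. No partner was called in Math1-GFP cells alone without the block, and 1 higher and 1 lower with it, where 0.728% of all probe sets were called. The block gave 0 higher and 4 lower in conventional cells, against 7.39% of all called. In the average it gave 1 higher and 5 lower, against 10.8%. The neuron markers given above were lower with these genes, and their part in the result was not tested.

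Between models, 2 of 11 partners were higher and 3 lower in Math1-GFP cells, a share close to the 42.6% of all probe sets called. With the block 4 were higher and 3 lower, against 48.3%, but the block leaves the spread between tumours out of a comparison between models. Neurod6, Atoh1, Olig3 and Lyl1 were named after their values were seen. Neurod6 was higher by 1.28 ± 0.41 (adjusted p 0.016) and Atoh1, whose regulatory sequence Math1-GFP reports on, by 0.71 ± 0.25 (adjusted p 0.029). Neurod4 fell by 2.07 ± 0.44 (adjusted p 7.6e-04), Olig3, made in early precursors of the rhombic lip, by 1.37 ± 0.49 (adjusted p 0.030) and Lyl1, a factor of blood cells, by 0.65 ± 0.19 (adjusted p 0.0086).

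**Figure D4:**
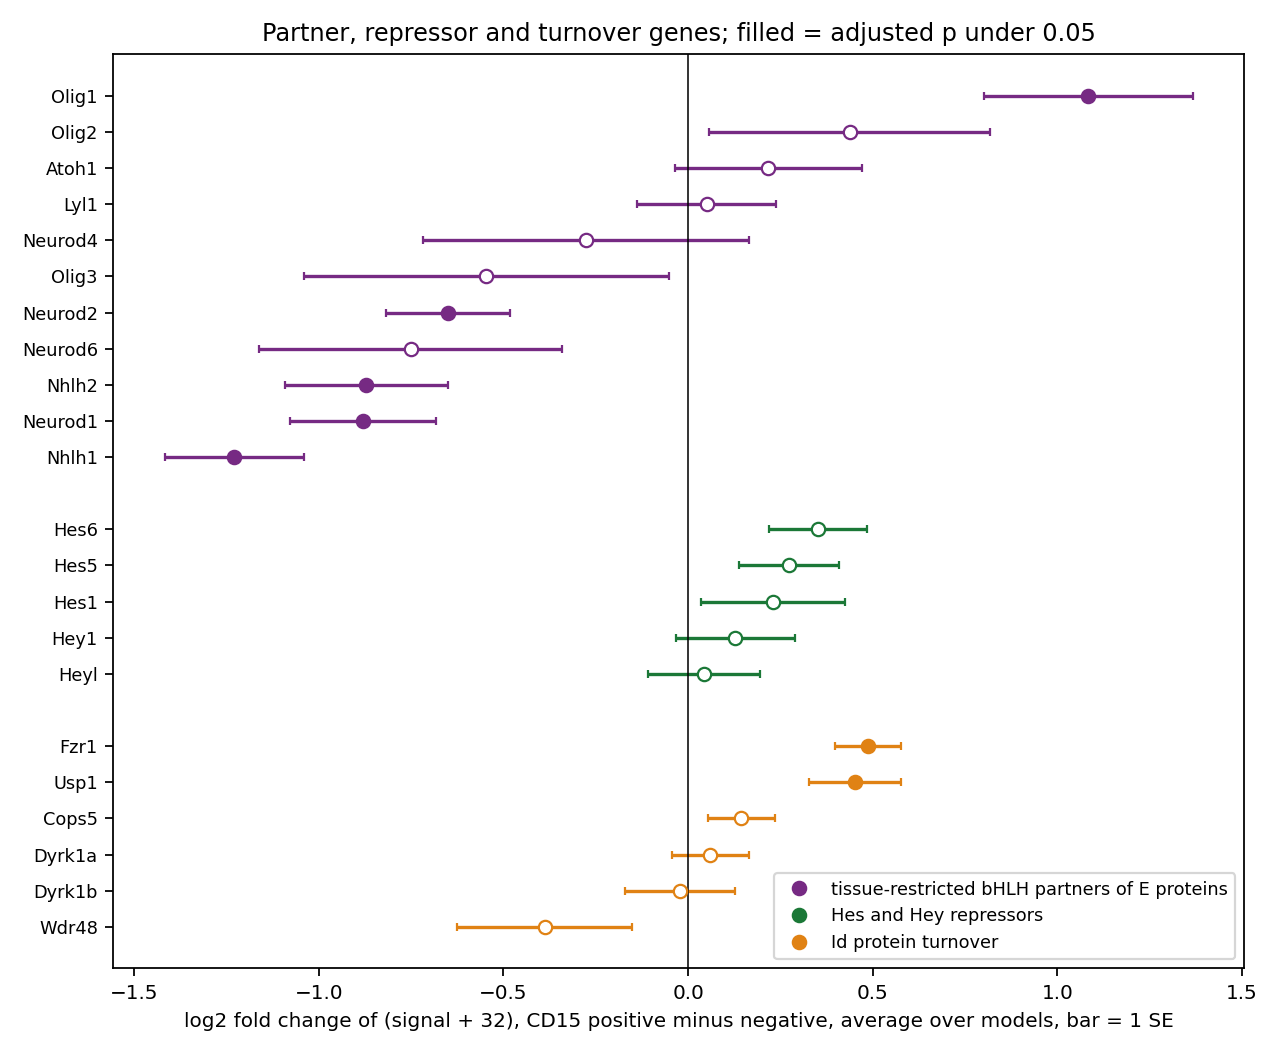
Log2 difference, CD15 positive minus CD15 negative averaged over the models, with 1 SE, for the measured tissue-restricted bHLH partners (11 genes), Hes and Hey repressors (5) and genes of Id protein turnover (6), with filled points for an adjusted p under 0.05. Nhlh1, Neurod1, Nhlh2 and Neurod2 lie below 0 and Olig1, Fzr1 and Usp1 above it among the filled points.

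Genes that control the stability of Id proteins were measured for 6 of 6. In conventional tumours 1 rose in CD15 positive cells, Fzr1, the Cdh1 subunit that directs the anaphase-promoting complex to its substrates, by 0.45 ± 0.12 (adjusted p 0.024, and 0.052 with the block). Averaged over the models, Fzr1 rose by 0.49 ± 0.09 (adjusted p 0.0015) and Usp1, a deubiquitinase that stabilises Id proteins, by 0.45 ± 0.12 (adjusted p 0.029). These are 2 higher and 0 lower of 6, against 2.6% and 4.92% of all probe sets. The 9 measured markers of mitosis were also all higher in that comparison, with a median of 0.87, and their part in the result was not tested. Between models, the kinase Dyrk1a (0.68, adjusted p 2.4e-05), Usp1 (0.44, adjusted p 0.0071) and Fzr1 (0.34, adjusted p 0.0041) were higher in Math1-GFP cells, and Cops5, a subunit of the COP9 signalosome, was lower (-0.44, adjusted p 6.4e-04), for 4 of 6 called against 42.6% of all probe sets.

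The BMP pathway, which regulates Id genes, was measured for 17 of 22 genes, and 0 of them were called between CD15 fractions in either model or on average, with a median of -0.04 in the average. Between models 3 were higher and 4 lower of 17, a share close to the 42.6% of all probe sets called. The receptors Acvr1 (0.53, adjusted p 0.0026), Bmpr2 (0.46, adjusted p 4.3e-04) and Bmpr1a (0.34, adjusted p 0.024) were higher in Math1-GFP cells. The ligand Bmp2 (-0.61, adjusted p 0.0060) and the extracellular antagonists Fst (-1.65 ± 0.37, adjusted p 0.0013) and Grem1 (-0.62, adjusted p 0.022) were lower there. The ligand Bmp4 (-0.60, adjusted p 0.040), named after its values were seen, completes the 4. The Hes and Hey repressors, bHLH proteins that act in Notch signalling, were measured for 5 of 8 genes with 0 CD15 calls. Between models 1 of 5 was called, Hes6, lower in Math1-GFP cells at -0.38 ± 0.13 (adjusted p 0.026).

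Of 10 measured cofactors of E proteins and their partners, 1 was called between fractions in the average, against 7.52% of all probe sets. This was Ldb1, which bridges LIM and bHLH complexes, lower at -0.33 ± 0.09 (adjusted p 0.027). Its conventional difference was -0.38 (adjusted p 0.060, and 0.049 with the block). Between models 2 of 10 were called, below the 42.6% of all probe sets: the coactivator Crebbp was higher (0.50, adjusted p 3.0e-04) and the corepressor Runx1t1 lower (-0.81, adjusted p 7.0e-05) in Math1-GFP cells. The Cdk inhibitors and pocket proteins, among them targets of E proteins and partners of Id2, were measured for 10 of 10 genes. They had 0 CD15 calls, and 2 higher on average with the block, against 10.8% of all probe sets called. Rb1 (0.31, adjusted p 0.033) and Cdkn1b (0.34, adjusted p 0.038) were higher and Cdkn2b (-1.06, adjusted p 0.0020) and Cdkn2d (-0.28, adjusted p 0.046) lower in Math1-GFP cells, 4 of 10 called against the same 42.6%.

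Among all genes, those whose deviations from the 4 group means followed each member most closely over the 21 arrays are given as a description, since the arrays share tumours, markers and scaling. For Id1 they were 1500015A07Rik (r = 0.90), Impact (0.88) and Ube2h (0.88), and for Id2 Cnpy1 (0.92), Thra (0.89) and Fnta (0.89). For Id3 they were Timp4 (0.96), Tmem176a (0.95) and Ccdc80 (0.95), and for Id4 Slc25a18 (0.79), Zcrb1 (0.79) and Rbm15 (0.78). Tcf3 was followed by Mbtps1 (0.88), Ak3 (0.84) and Igdcc4 (0.84), Tcf4 by Nrcam (0.88), Rmnd5b (0.87) and Cnot2 (0.87), and Tcf12 by Cap2 (0.95), Nrbp2 (0.92) and Arhgap24 (0.91). Among the members themselves, Id2 and Id3 varied together (r = 0.66), as did each with Tcf12 (0.63 and 0.64), whereas Id1 varied against Tcf12 (-0.71) and Id4 against Tcf3 (-0.71).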

How the data were processed

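RNA of the 21 samples had been hybridised to 1 array each. The deposited values are intensity values, 1 per probe set, on a linear scale, and the steps by which the authors obtained them are not stated in the labels or the file. The equal trimmed mean of every array, 150.0, was found from the values. Column names were matched to the titles, with 0 columns left unmapped.

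The 32 added before log2 and the low-signal filter were set here. Probe sets were named from the array annotation: 34958 have 1 symbol, 932 several, 9211 none listed, and 64 are controls. The 4 group means were fitted with limma 3.58.1 in R 4.3.3 (lmFit and eBayes, 17 residual degrees of freedom, empirical Bayes spread shared by all arrays), giving 5 contrasts. Every member probe set is reported. Lists used the brightest probe set of each gene over 12367 genes. From each list the genes past the threshold in any contrast were named, up to the 6 of smallest p, and for each member the 3 genes of highest correlation; Atoh1, Neurod6, Olig3, Lyl1 and Bmp4 were named outside this rule after their values were seen, to complete short counts. The members and lists were chosen with earlier results of these data known. Figures were drawn with matplotlib and the fit was tested on simulated data.

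Deviations from the group means correlated between same-numbered conventional arrays at r = 0.53 to 0.71, and at most 0.35 between other numbered pairs, so the 5 title numbers were taken as pairs. Consecutive Math1-GFP numbers correlated at 0.58 or more and others at most 0.14, but the labels do not state those pairs. Separate animals are not stated for the arrays of a group, and a p-value here reflects the spread among these samples, part of which may be technical. The number of arrays limits the precision. Id1 has no promoter window in the RefSeq table. Member windows on chromosome 18, where Tcf4 lies, were left out here. Of the 7 members, 5 had a window among the rest.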

Additional observations from a re-analysis of the deposited data

Results flagged for a closer look

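Among 88 sets of 4 to 6 arrays (22 probe sets in 4 groups), 6 had 1 array that stood apart from the others by Dixon's criterion at 95%, and chance gives about 1 in 20. Math1-GFP CD15 positive array 1 was highest for Id2 1422537_a_at, at 1856 with the next at 608, and for Id4 1423259_at, at 205 with the next at 59.3. Math1-GFP CD15 negative array 2 was highest for Tcf4 1416724_x_at, at 3595 with the next at 2068. Conventional CD15 positive array 6 was lowest for Tcf4 1416725_at, at 2.69 with the next at 39.1, and for Tcf12 1439209_at, at 2.27 with the next at 26.2. Conventional CD15 negative array 5 was lowest for Tcf3 1452542_x_at, at 5.99 with the next at 54.0. With all arrays, 6 of the 22 member probe sets were called between models, against 42.6% of all tested probe sets. Without Math1-GFP arrays 1 and 2, an alternative chosen after seeing the data, 8 of the 22 were called. The share of all probe sets called in that alternative is not given here, so the 8 cannot be read against it. Id4 1423259_at stayed called there, at 0.74 (adjusted p 0.0012).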

How the results depend on the processing

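Of 4039 comparisons of a member value with an alternative, 3929 stayed called, or uncalled and within 1 SE, of which 3732 kept their direction and 197, called in neither fit, changed sign. A further 48 passed the threshold newly, 8 no longer passed and 54 uncalled values moved by more than 1 SE, 12 of them with a change of sign. No called value changed sign. Math1-GFP CD15 calls over all probe sets were 0 by limma, with 1820 at an unadjusted p under 0.05, but 22 with the larger added constant, 6 above the 60th percentile, 5 on the brightest and 8 on the mean probe set per gene, 2 with a trended robust prior, 3 with the 2 groups alone, 7 with numbered arrays only, 169 with the replicate block, 242 with the unnumbered arrays as a further pair and 1161 with consecutive Math1-GFP numbers as pairs. The conventional count, 1372, became 905 with the 2 groups alone, 2469 with the further pair and 3972 with consecutive pairs. The average, 1746, became 3154 and 5102 in those last fits, and the model count, 9894, became 4845 and 5195 per gene and 4980 and 5135 within CD15 positive and CD15 negative arrays. Member calls in conventional cells were 1, but 0 on the brightest or mean probe set and on numbered arrays only, 2 with the replicate block or the further pair and 4 with consecutive pairs. In Math1-GFP cells they were 0, but 1 with the further pair and 2 with consecutive pairs. In the average they were 1, but 0 per gene, 3 with the replicate block or the further pair and 6 with consecutive pairs. Between models they were 6, but 2 per gene, 10 with consecutive pairs and 3 in CD15 negative arrays, where 22.1% of all probe sets were called. Fits with pairs as blocks leave the spread between tumours out of a comparison between models. The per-gene counts test fewer probe sets; other causes were not tested. Leaving out each array in turn gave 793 (without conventional CD15 negative array 5) to 1468 conventional calls, 0 to 40 in Math1-GFP cells, 0 for the difference of differences, 1289 to 1819 in the average and 9177 to 10230 between models, with 1, 0, 0, 1 and 6 to 7 member calls. Signals near the filter limit what can be said of Id4 and of the dim Tcf3, Tcf4 and Tcf12 probe sets. The further pair, the consecutive pairs and the single-fraction fits were chosen after seeing the data.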
